A study of Bos taurus with 30 samples.

Results

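Histone modifying enzymes were followed in day 15 bovine embryos, as the genes of the count table whose cattle symbol belongs to 1 of 11 enzyme classes. The classes hold the lysine demethylases (KDM, 16 genes), the lysine methyltransferases named KMT (8), SETD with SETDB (11), EHMT (2) and SMYD (5), the arginine methyltransferases (PRMT, 8), the lysine acetyltransferases (KAT, 8), the histone deacetylases (HDAC, 11), the sirtuins (SIRT, 7), the Polycomb repressive complex PRC2 core (EZH1, EZH2, EED and SUZ12) and the JADE genes (3). Together they are 83 of the 35092 genes in the table. The rule reads symbols matched by Entrez gene ID and uses no measured value.

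The data were 30 poly(A) RNA libraries from 17 Holstein embryos recovered on day 15, 8 of them IVP (made in vitro) and 9 IVV (conceived in the cow). Each IVP embryo came from a slaughterhouse oocyte that was matured, fertilized and cultured without serum, transferred on day 7 to a recipient cow and flushed 8 days later. IVV embryos came from superovulated donors that were inseminated and flushed on day 15 after insemination. For the embryonic disc (ED) there were 7 IVP and 9 IVV libraries, for the extra-embryonic membranes (EEM) 6 IVP and 8 IVV libraries, and 13 embryos gave both tissues. A pair of recipients carried the IVP embryos and a pair of donors the IVV embryos, all embryos were sired by Holstein semen, and embryos without a visible ED were discarded, so the procedure, the oocyte source and the cow cannot be told apart. The labels give neither the sex nor the length of an embryo. XIST, an RNA of female cells, was near 0 in every IVP library and, among IVV embryos, in VE3 and VE5 alone. With so few IVV embryos near 0, sex as read from XIST cannot be told apart from the procedure for any member.

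Chromatin is set by enzymes that write, erase and scaffold marks on histone tails. Methyltransferases and acetyltransferases add methyl and acetyl groups to lysines or arginines, and demethylases, deacetylases and sirtuins remove them. PRC2 places the repressive methyl mark on lysine 27 of histone H3, which KDM6A and KDM6B remove, and it holds developmental genes silent in the epiblast until gastrulation. JADE proteins are scaffolds without an enzymatic domain for acetylation that bring the acetyltransferase KAT7, with ING and MEAF6 subunits, to histone H4.

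Library totals ran from 48713218 to 63037371 counts, and levels are given as CPM, the count scaled to the library's TMM-adjusted total, which does not correct for transcript length, so CPM values of different genes were not read as an order of their transcript levels. As a check of the tissue labels, POU5F1, a pluripotency factor of the epiblast, reached 16.4 to 39.6 CPM in the 7 IVP ED libraries and 26.9 to 228 CPM in the 9 IVV ED libraries, against 0.419 to 2.44 CPM over all EEM libraries. The sum of the 5 epiblast markers found separated the tissues less well. In IVP embryos it overlapped, at 58.5 to 205 CPM in the ED and 18.4 to 79.6 CPM in the EEM. In IVV embryos it was 94.7 to 425 CPM and 10.7 to 53.8 CPM. The ED also carried trophoblast RNA: 13 trophoblast genes summed to between 12400 and 69900 CPM in the IVP ED and between 29100 and 45200 CPM in the IVV ED, ranges that overlap those of the EEM (32000 to 68600 CPM in IVP and 32500 to 54000 CPM in IVV). SOX2, another epiblast factor, was listed at 0 in every library; a non-coding gene, LOC100849009, overlaps it in the annotation, so this 0 was not read as absence. All 11 streak and mesoderm markers tested had estimates below 0 in IVP against IVV ED libraries. Of them, 10 were called lower at an adjusted p of 0.05 by edgeR, beside 4.95% of all genes. The summed level of the 12 markers listed was 14.5 to 57.3 CPM in IVP against 53.9 to 207 CPM in IVV ED libraries.

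Whether the in vitro procedure altered the enzymes was asked first, separately in each tissue. In the ED, 80 members had counts high enough to be tested, and 3 of them were lower in IVP than in IVV embryos, JADE2, KDM6A and KDM4B, while 0 were higher by edgeR's quasi-likelihood test at an adjusted p of 0.05. Over all 15733 genes tested in the ED, 4.95% were called lower and 1.4% higher, so the members' share was not above that of the transcriptome. Of the 80 members, 9 had an unadjusted p under 0.05, beside 18.4% of all genes, so this share too was not above that of the transcriptome. In the EEM, 1 of 78 members tested was lower in IVP embryos, KDM6A, and 0 were higher, beside 1.52% of all genes called lower and 2.29% called higher, and 5 of the 78 had an unadjusted p under 0.05, beside 13.7% of all genes. The same shares, 18.4% in the ED and 13.7% in the EEM, stand behind the unadjusted counts of single classes given for these tissues. The median log2 fold change of the members was -0.053 in the ED, against -0.008 for all genes tested, and -0.064 in the EEM, against 0.004 for all genes tested. The arginine methyltransferase PRMT8 and SMYD1, a methyltransferase of striated muscle, were too low to be tested in either tissue, and HDAC9 and JADE2 in the EEM alone. SIRT3 was listed at 0 in every library and was not tested.

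**Figure D1:**
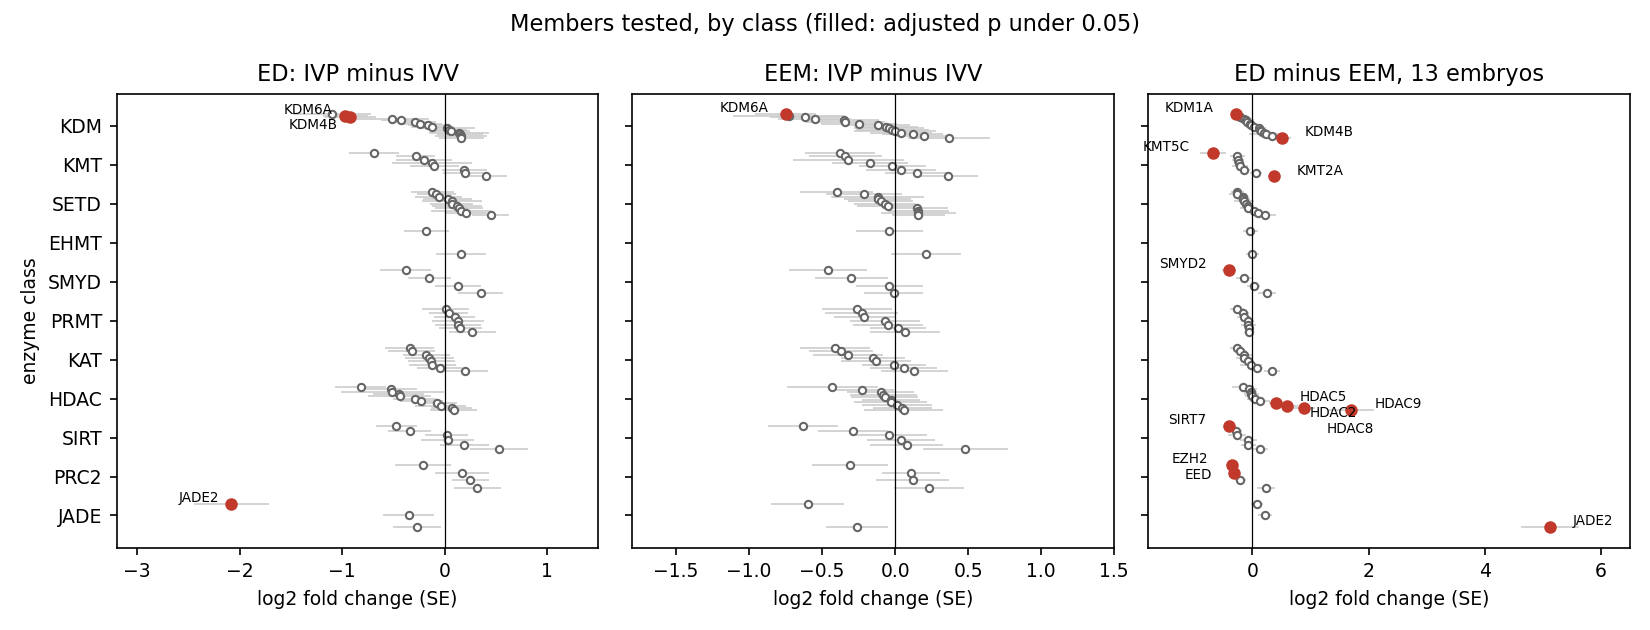
Log2 fold change (x axis, bars 1 SE) of every member tested, by enzyme class (y axis), for IVP minus IVV in the ED (left), IVP minus IVV in the EEM (middle) and ED minus EEM within embryos (right), with filled points for an adjusted p under 0.05. JADE2 lies apart from the other members at -2.08 in the left panel and at 5.12 in the right panel, and most other members lie within 1 log2 unit of 0.

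Among the JADE scaffolds, JADE2 differed most between the groups. JADE2 (Entrez gene ID 512319) ran from 1.19 to 2.33 CPM, with a median of 2.03, in the 7 IVP ED libraries, and from 2.46 to 17.9 CPM, with a median of 6.03, in the 9 IVV ED libraries. The groups did not overlap, and every IVP disc lay below the lowest IVV disc, embryo VE4. Means (± SD) were 1.86 ± 0.41 CPM over 7 IVP discs and 7.72 ± 5 CPM over 9 IVV discs, and the IVP level was 4.23-fold lower in the fit (log2 fold change -2.08, SE 0.37, adjusted p = 0.00107, edgeR's quasi-likelihood test). In bulk tissue, fewer cells of a type and less RNA per cell cannot be told apart. The change held when any 1 of the 16 embryos was left out, with log2 fold changes from -2.22 without VE4 to -1.69 without VE5 and adjusted p up to 0.00348. Without all embryos titled IVPF, which left 3 IVP discs, it was -2.22 with an adjusted p of 0.053 by edgeR. JADE2 was singled out in an earlier analysis of the same libraries, so its change is no independent evidence. The annotation places a non-coding gene, LOC112447420, over JADE2, and libraries without strand cannot separate their reads.

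JADE1 and JADE3 did not pass the test in either tissue. JADE1 spanned 24.7 to 94.4 CPM in IVP and 42.5 to 132 CPM in IVV discs (log2 fold change -0.35, SE 0.25, adjusted p = 0.528, edgeR). In the EEM its estimate was -0.60 with an SE of 0.25 and an adjusted p of 0.259 by edgeR, and its groups overlapped, from 25.4 to 63.6 CPM in IVP and from 42.7 to 102 CPM in IVV. JADE3, which is X-linked, spanned 14.9 to 33.5 CPM in IVP and 10.9 to 43.6 CPM in IVV discs (log2 fold change -0.27, adjusted p = 0.61, edgeR). Reads of JADE1 may be shared with SCLT1, whose gene overlaps it. KAT7, the acetyltransferase that JADE proteins scaffold, had means of 37.8 CPM in IVP and 44.5 CPM in IVV discs and was not called.

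JADE2 moved with POU5F1 among IVV discs. POU5F1 was itself lower in IVP discs (mean ± SD 29.2 ± 9.01 CPM over 7 discs and 95 ± 63.2 CPM over 9 discs, log2 fold change -1.72, SE 0.36, adjusted p = 0.00479, edgeR). Across the 9 IVV discs log2 levels of JADE2 and POU5F1 had Pearson's r = 0.964 (exact permutation p = 0.000154, adjusted p = 0.000617 over the 4 tests made) and Spearman's rho = 0.867 (exact permutation p = 0.00451, adjusted p = 0.00902), and r was 0.905 without VE4 and VE5. Across the 7 IVP discs r was 0.214 (exact permutation p = 0.624, adjusted p = 0.713) and rho -0.179 (exact permutation p = 0.713, adjusted p = 0.713), with r at -0.789 without IVP10 and IVPF13, so no stable relation was seen there. POU5F1 was chosen after its values had been seen. Per 100 CPM of POU5F1, JADE2 reached 3.98 to 10.1 CPM in IVP discs (median 7.24) and 6.16 to 9.89 CPM in IVV discs (median 9.14), and these ranges overlapped.

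With the log2 level of POU5F1 added to the ED fit, the JADE2 estimate was -0.62 with an adjusted p of 0.563, and with the summed level of the epiblast markers it was -1.13 with an adjusted p of 0.0973, both by edgeR. Both fits were added after the data had been seen. POU5F1, which is also in the epiblast sum, itself differed between the procedures, so these fits cannot separate it from the procedure. The summed level of the 5 epiblast markers found was 58.5 to 205 CPM in IVP and 94.7 to 425 CPM in IVV discs. Much of that sum was LIN28A, with means of 78.1 CPM in IVP and 71.6 CPM in IVV discs, and of 47 and 38.4 CPM in the EEM. The part of disc cell makeup in the JADE2 difference was not tested.

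**Figure D2:**
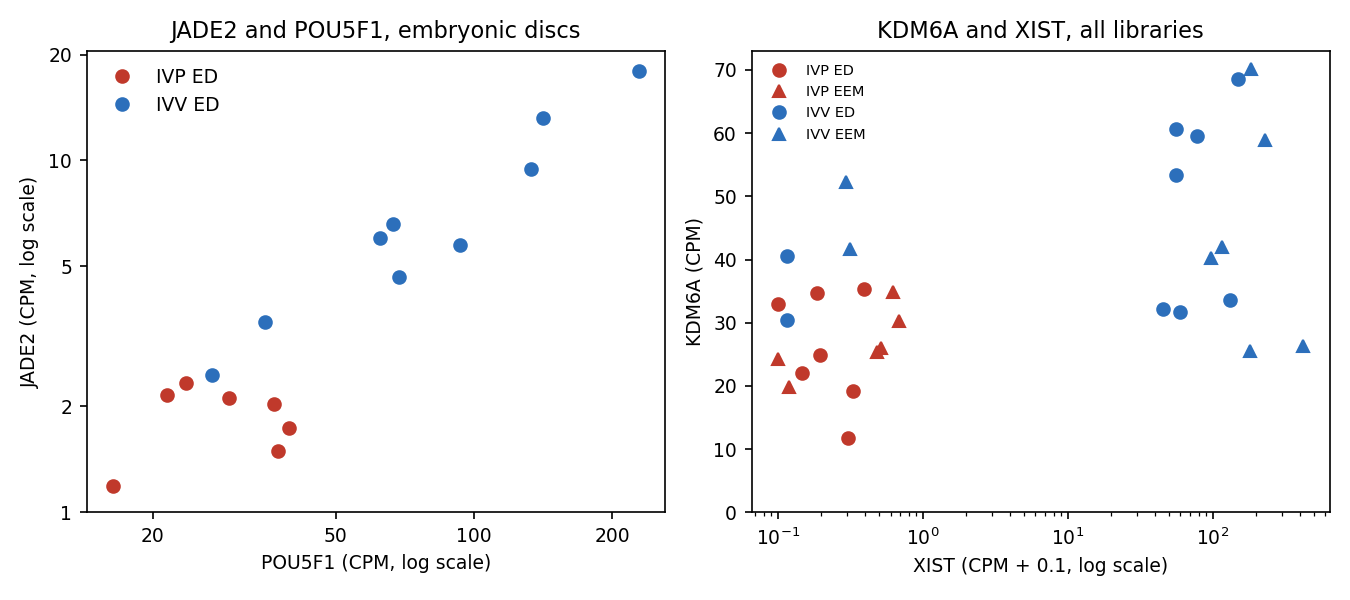
Left, JADE2 against POU5F1 (CPM, both on log scales) in the 16 ED libraries, red for IVP and blue for IVV. The blue points rise together (r = 0.964, n = 9) and the red points lie low on both axes. Right, KDM6A (CPM) against XIST (CPM plus 0.1, log scale) in all 30 libraries, circles for ED and triangles for EEM, where every IVP library lies at the low end of XIST and 2 IVV embryos lie there too.

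Among the demethylases, KDM6A, KDM4B and the very low KDM7A had the lowest estimates in IVP discs, and 14 of the 16 genes of the class were not called. KDM6A (gene ID 280952), which removes methyl groups from lysine 27 of histone H3 and is X-linked, ran from 11.8 to 35.3 CPM (median 24.9) in IVP discs and from 30.5 to 68.5 CPM (median 40.6) in IVV discs. The groups overlapped, since 3 IVP discs lay above the lowest IVV disc, VE5. Means (± SD) were 25.8 ± 8.89 CPM over 7 IVP discs and 45.6 ± 14.9 CPM over 9 IVV discs, and the IVP level was 1.96-fold lower (log2 fold change -0.97, SE 0.22, adjusted p = 0.00967, edgeR), and the call held without any 1 embryo (adjusted p up to 0.0494, without IVP11) but not without all embryos titled IVPF, which left 3 IVP discs (-0.98, adjusted p = 0.139).

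KDM6A was also the member called in the EEM. There it ran from 19.9 to 34.8 CPM (median 25.7) in IVP and from 25.5 to 70.1 CPM (median 41.8) in IVV embryos. The groups overlapped through VE28 and VE19, whose levels were 25.5 and 26.4 CPM, while the other 6 IVV membranes lay above all IVP membranes. Means (± SD) were 26.7 ± 5.14 CPM over 6 IVP membranes and 44.6 ± 15.3 CPM over 8 IVV membranes, and the IVP level was 1.68-fold lower (log2 fold change -0.75, SE 0.21, adjusted p = 0.0384, edgeR). This call was close to the threshold. With 1 embryo left out it was kept without VE26, VE28 or VE5, and without each of the other 11 embryos the adjusted p was between 0.0506 (IVP10) and 0.105 (IVP14), with log2 fold changes between -0.79 and -0.66. It was also lost with no surrogate variable (-0.74, adjusted p = 0.129), with 2 surrogate variables (-0.69, adjusted p = 0.0708), with the title letter as a term (-0.75, adjusted p = 0.0803), in the 13 embryos with both tissues (-0.79, adjusted p = 0.0542), with POU5F1 in the fit (-0.82, adjusted p = 0.0531) and without embryos titled IVPF (-0.76, adjusted p = 0.282).

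XIST, the RNA that coats the inactive X chromosome in female cells, differed between the groups in the same libraries. It lay between 0 and 0.591 CPM in all 13 IVP libraries, whereas in the IVV ED its median was 55.9 CPM and in the IVV EEM 149 CPM, with VE3 and VE5 near 0 in both tissues (0.0154 to 0.214 CPM). In these 2 IVV embryos KDM6A was at 40.6 and 30.5 CPM in the ED and at 52.2 and 41.7 CPM in the EEM. KDM6A is known to escape X inactivation in human and mouse. With XIST in the fit, the KDM6A estimate was -0.58 in the ED (adjusted p = 0.356, edgeR) and -0.54 in the EEM (adjusted p = 0.744, edgeR), and XIST and the procedure cannot be told apart with so few IVV embryos near 0. The other X-linked members did not pass the test. KDM5C, which demethylates lysine 4 of histone H3 and also escapes inactivation, had estimates of -0.43 in the ED (adjusted p = 0.22) and -0.55 in the EEM (adjusted p = 0.311), and HDAC6, a cytoplasmic deacetylase, had -0.23 in both tissues, all by edgeR.

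KDM4B (gene ID 508141), a demethylase of lysine 9 of histone H3, ran from 5.93 to 17.9 CPM (median 8.13) in IVP discs and from 8.31 to 27.6 CPM (median 21.8) in IVV discs. The groups overlapped widely, with 3 IVP discs between 15 and 18 CPM. Means (± SD) were 10.9 ± 5.3 CPM over 7 IVP discs and 18.7 ± 6.64 CPM over 9 IVV discs, with a log2 fold change of -0.92, an SE of 0.25 and an adjusted p of 0.0305 by edgeR. The call was lost without IVP11, IVPF13, IVPF14, VE28, VE29 or VE6, where log2 fold changes of -0.9 to -0.69 had adjusted p between 0.0533 and 0.0814, and with XIST in the fit (-0.60, adjusted p = 0.44). It was also lost with no surrogate variable (-0.81, adjusted p = 0.108), with 2 surrogate variables (-0.76, adjusted p = 0.0904), with the title letter as a term (-0.86, adjusted p = 0.0524) and in the 13 embryos with both tissues (-0.76, adjusted p = 0.0934). In the EEM the KDM4B estimate was -0.25 (SE 0.26, adjusted p = 0.85, edgeR). KDM7A, which demethylates lysines 9 and 27 of histone H3, spanned only 0.174 to 1.07 CPM in IVP and 0.559 to 1.75 CPM in IVV discs (log2 fold change -1.10, SE 0.38, adjusted p = 0.0929, edgeR).

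**Figure D3:**
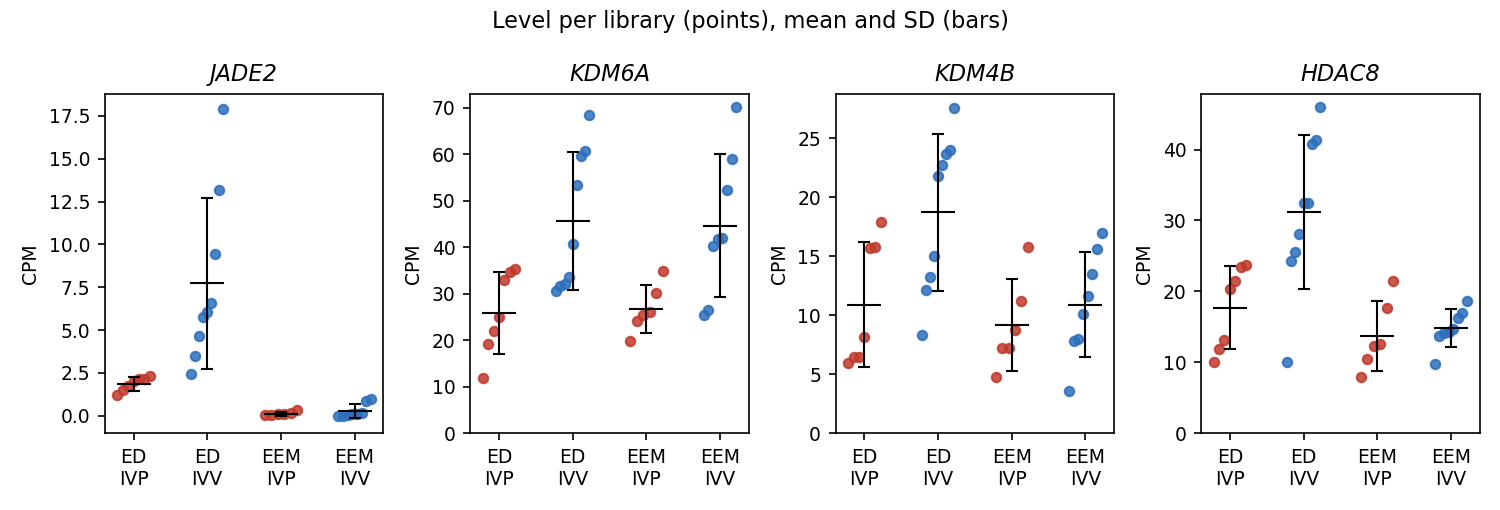
Level (CPM, y axis) of JADE2, KDM6A, KDM4B and HDAC8 in every library (points, red for IVP and blue for IVV), with the mean and 1 SD as black bars, in IVP and IVV ED and EEM. JADE2 separates the discs of both procedures and lies at or below 0.995 CPM in the EEM, KDM6A is lower on average in IVP embryos in both tissues, and KDM4B and HDAC8 overlap.

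The deacetylases gave no call between the procedures in either tissue, with 11 of 11 tested in the ED and 10 of 11 in the EEM by edgeR, where p before adjustment was under 0.05 for 1 and 0 of them. Of the 11 estimates in the ED, 2 were above 0 and their median was -0.294, beside 7736 of 15733 above 0 and a median of -0.008 for all genes tested. HDAC8, an X-linked class I enzyme that also deacetylates cohesin, was nearest to the threshold. It ran from 10 to 23.7 CPM (median 20.4) in IVP and from 10.1 to 46 CPM (median 32.4) in IVV discs, where 8 of the 9 IVV discs lay above all IVP discs and VE24 lay among the lowest. The log2 fold change of HDAC8 was -0.82 (SE 0.25, adjusted p = 0.0553, edgeR), and it passed the threshold in DESeq2 (-0.80, adjusted p = 0.029) and without IVP11, IVP14, VE19 or VE24 (adjusted p between 0.00985 and 0.0493). With POU5F1 in the fit the HDAC8 estimate was -0.13 (adjusted p = 0.958, edgeR), and with XIST in the fit it was -1.13 and called (adjusted p = 0.049, edgeR). Both covariates differed between the procedures, so neither fit separates its covariate from the procedure. HDAC2 had an estimate of -0.52 (adjusted p = 0.28) and HDAC5 of -0.45 (adjusted p = 0.358) in the ED, and HDAC1, the class I partner of HDAC2 in corepressor complexes, of 0.07 (adjusted p = 0.915), all by edgeR.

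Of the sirtuins, the NAD-dependent deacylases, 6 of 7 were tested and 0 called in either tissue by edgeR, with 1 under an unadjusted p of 0.05 in each. SIRT1 spanned 28.6 to 94.4 CPM in IVP and 39.3 to 91.1 CPM in IVV discs (log2 fold change -0.47, SE 0.20, adjusted p = 0.197, edgeR). In the EEM it spanned 35.5 to 73.5 CPM in IVP and 45 to 120 CPM in IVV embryos (log2 fold change -0.63, SE 0.24, adjusted p = 0.161, edgeR). SIRT7, a nucleolar sirtuin, was at 0.19 in the ED (adjusted p = 0.778) and 0.08 in the EEM (adjusted p = 0.984), both log2 fold changes from edgeR. The mitochondrial SIRT3 was listed at 0 in all 30 libraries. In the annotation the gene overlaps NBAS, so this 0 was not read as absence or as a low level.

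The lysine methyltransferases of the KMT, SETD, EHMT and SMYD classes showed 0 calls among 25 members tested in each tissue, with median log2 fold changes of 0.072 in the ED and -0.048 in the EEM. By unadjusted p, 2 of the 25 were under 0.05 in the ED and 0 in the EEM, beside 18.4% and 13.7% of all genes. KMT2A, which methylates lysine 4 of histone H3 at HOX genes, ran from 5.21 to 15.5 CPM (median 10.4) in IVP and from 10.3 to 25.4 CPM (median 14.6) in IVV discs, with a log2 fold change of -0.69 (SE 0.24, adjusted p = 0.0856, edgeR). SETD7, a lysine 4 monomethyltransferase, went the other way and ran from 87.7 to 223 CPM (median 133) in IVP and from 50.9 to 140 CPM (median 103) in IVV discs, with a log2 fold change of 0.45 (SE 0.18, adjusted p = 0.163, edgeR). Both pairs of groups overlapped, and neither gene passed the test, although SETD7 did without IVP11 (0.67, adjusted p = 0.0463) and KMT2A did in DESeq2 (-0.67, adjusted p = 0.0444). Estimates for KMT5A, which monomethylates lysine 20 of histone H4, were 0.40 in the ED (adjusted p = 0.338) and 0.36 in the EEM (adjusted p = 0.523, edgeR).

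EHMT1 and EHMT2, which add 2 methyl groups to lysine 9 of histone H3, lay within 1 SE of 0 in both tissues: EHMT1 at -0.18 (SE 0.22) in the ED and -0.04 (SE 0.23) in the EEM, and EHMT2 at 0.16 (SE 0.24) and 0.21 (SE 0.24). In the SMYD class, SMYD5 was at 50.2 to 79.1 CPM in IVP and 18.4 to 81.3 CPM in IVV discs (log2 fold change 0.35, SE 0.22, adjusted p = 0.442, edgeR). SETD9 lay between 0.639 and 2.94 CPM over all libraries and was not called. SMYD1 reached at most 0.153 CPM in any library and PRMT8 at most 0.0922 CPM.

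The PRC2 core gave no call between the procedures by edgeR. EZH2, the catalytic subunit of dividing cells, ran from 72.3 to 223 CPM (median 109) in IVP and from 57.4 to 193 CPM (median 97) in IVV discs (log2 fold change 0.17, SE 0.26, adjusted p = 0.821, edgeR). Its scaffold SUZ12 and the mark reader EED had estimates of 0.25 (SE 0.18, adjusted p = 0.518) and 0.32 (SE 0.23, adjusted p = 0.519) in the ED, and EZH1, the other catalytic subunit, of -0.21 (SE 0.27, adjusted p = 0.782). In the EEM all 4 estimates lay between -0.31 for EZH1 and 0.23 for EZH2. By unadjusted p, 0 of the 4 were under 0.05 in either tissue, and these SEs do not show that the levels were equal.

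Neither the arginine methyltransferases nor the acetyltransferases gave a call between procedures by edgeR, and before adjustment 0 of them had a p under 0.05. For the 7 PRMT genes tested, log2 fold changes lay between 0.01 and 0.27 in the ED and between -0.26 and 0.07 in the EEM. PRMT1, the main asymmetric arginine methyltransferase, spanned 154 to 534 CPM in IVP and 225 to 437 CPM in IVV discs (log2 fold change 0.13, SE 0.22, adjusted p = 0.847, edgeR). The 8 KAT genes had estimates between -0.34 and 0.20 in the ED and between -0.41 and 0.13 in the EEM. KAT5, the catalytic subunit of the TIP60 complex, was at -0.34 in the ED (SE 0.24, adjusted p = 0.507) and -0.32 in the EEM (SE 0.24, adjusted p = 0.703), and KAT2B, a SAGA type acetyltransferase, at -0.18 (adjusted p = 0.79) and -0.13 (adjusted p = 0.971), all by edgeR.

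The enzymes were next compared between the tissues of the same embryo, in the 13 embryos with both, with the embryo as a block. These libraries are among those of the comparisons between procedures. Of 80 members tested, 7 were higher in the ED (JADE2, HDAC9, HDAC8, HDAC2, KDM4B, HDAC5 and KMT2A) and 6 lower (KMT5C, SIRT7, SMYD2, EZH2, EED and KDM1A), by edgeR's quasi-likelihood test. Over all 14898 genes tested, 12.8% were higher in the ED and 8.16% lower, so the members' shares were not above those of the transcriptome. With no embryo block 4 of the 13 calls were left (JADE2, HDAC9, HDAC2 and HDAC8). The median log2 difference, ED minus EEM, was -0.068 for the members and -0.085 for all genes tested.

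JADE2 had the largest tissue difference among the members. In the EEM it ran from 0.0218 to 0.315 CPM (median 0.0963) in IVP and from 0 to 0.995 CPM (median 0.132) in IVV embryos, and no EEM library reached the lowest ED library. Mean levels in the 13 embryos were 5.59 CPM in the ED and 0.207 CPM in the EEM, higher in the ED in 13 of 13 embryos (log2 difference 5.12, SE 0.50, adjusted p = 2.91e-07, edgeR). JADE2 held 1 to 18 counts in IVP and 0 to 53 counts in IVV membranes and passed the filter through the ED, where it was high, so it had to differ and the size of the fitted difference is not precise. JADE1 and JADE3 had differences of 0.22 (adjusted p = 0.209) and 0.08 (adjusted p = 0.58) and were not called. POU5F1 averaged 72 CPM in the ED and 1.34 CPM in the EEM of the same embryos.

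HDAC8, HDAC2 and HDAC5 were the deacetylases called higher in the ED at levels well counted in both tissues, and 0 of 11 were called lower, beside 12.8% of all genes higher and 8.16% lower. A count from so short a list was not tested against these shares. HDAC9, a class IIa enzyme, was low in both tissues, from 0.101 to 1.88 CPM in the ED and from 0 to 0.324 CPM in the EEM, and 12 of 13 embryos had more in the ED (log2 difference 1.70, SE 0.39, adjusted p = 0.0037, edgeR). With 3 to 10 counts in IVP and 0 to 14 counts in IVV membranes, HDAC9 too passed the filter through the ED, and its call carries no weight as support. HDAC8 averaged 27.5 CPM in the ED and 14.5 CPM in the EEM (log2 difference 0.88, SE 0.19, adjusted p = 0.0024, edgeR), higher in the ED in 12 of 13 embryos. HDAC2 averaged 84 and 53.9 CPM (log2 difference 0.59, SE 0.19, adjusted p = 0.0289, edgeR), also higher in 12 of 13 embryos, but the HDAC2 call was lost without IVPF13, VE19, VE26, VE28, VE29 or VE5 (0.48 to 0.58, adjusted p between 0.0519 and 0.0702). HDAC5, another class IIa enzyme, averaged 24 and 18.1 CPM (log2 difference 0.41, SE 0.12, adjusted p = 0.0233, edgeR), higher in 12 of 13 embryos, and lost its call without IVP14, VE3 or VE5 (adjusted p between 0.0516 and 0.0635). The libraries of ED and EEM overlapped for each of these 4 genes. HDAC1 differed by -0.06 (adjusted p = 0.76) and HDAC6 by 0.05 (adjusted p = 0.827).

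The tissue calls among the lysine methyltransferases and demethylases were small. KMT2A was higher in the ED in 12 of 13 embryos, with means of 13.4 and 10 CPM (log2 difference 0.37, SE 0.11, adjusted p = 0.0189, edgeR), and KDM4B in 9 of 13, with means of 14.8 and 10.4 CPM (log2 difference 0.51, SE 0.16, adjusted p = 0.0245, edgeR). The embryos with less KDM4B in the ED were IVP10, IVPF13, IVPF14 and VE26. Over the alternatives, which include fits within each procedure, estimates ran from 0.07 to 0.74 for KDM4B and from 0.08 to 0.52 for KMT2A. KMT5C, which trimethylates lysine 20 of histone H4 in heterochromatin, was lower in the ED, with means of 19 and 32.9 CPM (log2 difference -0.68, SE 0.22, adjusted p = 0.0333, edgeR), and exceeded the EEM in 2 of 13 embryos. SMYD2, a monomethyltransferase, averaged 26.3 CPM in the ED and 34.2 CPM in the EEM (log2 difference -0.40, SE 0.12, adjusted p = 0.0215, edgeR). KDM1A (LSD1), the flavin-dependent demethylase of lysine 4, averaged 231 and 275 CPM (log2 difference -0.28, SE 0.09, adjusted p = 0.0382, edgeR) and was higher in the ED in 1 of 13 embryos. The KDM1A call was lost without IVPF14, VE26, VE28, VE29, VE3, VE4 or VE5 (-0.29 to -0.25, adjusted p between 0.0529 and 0.0823), with halved counts (adjusted p = 0.0538), with no filter on low counts (adjusted p = 0.0517) and with no embryo block (-0.24, adjusted p = 0.541). The KDM4B and KMT5C calls were each lost without any 1 of 4 embryos (IVP14, VE19, VE28 or VE29 for KDM4B, VE26, VE28, VE29 or VE5 for KMT5C), with adjusted p between 0.0518 and 0.0745, and that of KMT2A without VE5 (0.31, adjusted p = 0.0522). KDM6A showed no tissue call (log2 difference -0.09, SE 0.12, adjusted p = 0.594, edgeR).

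**Figure D4:**
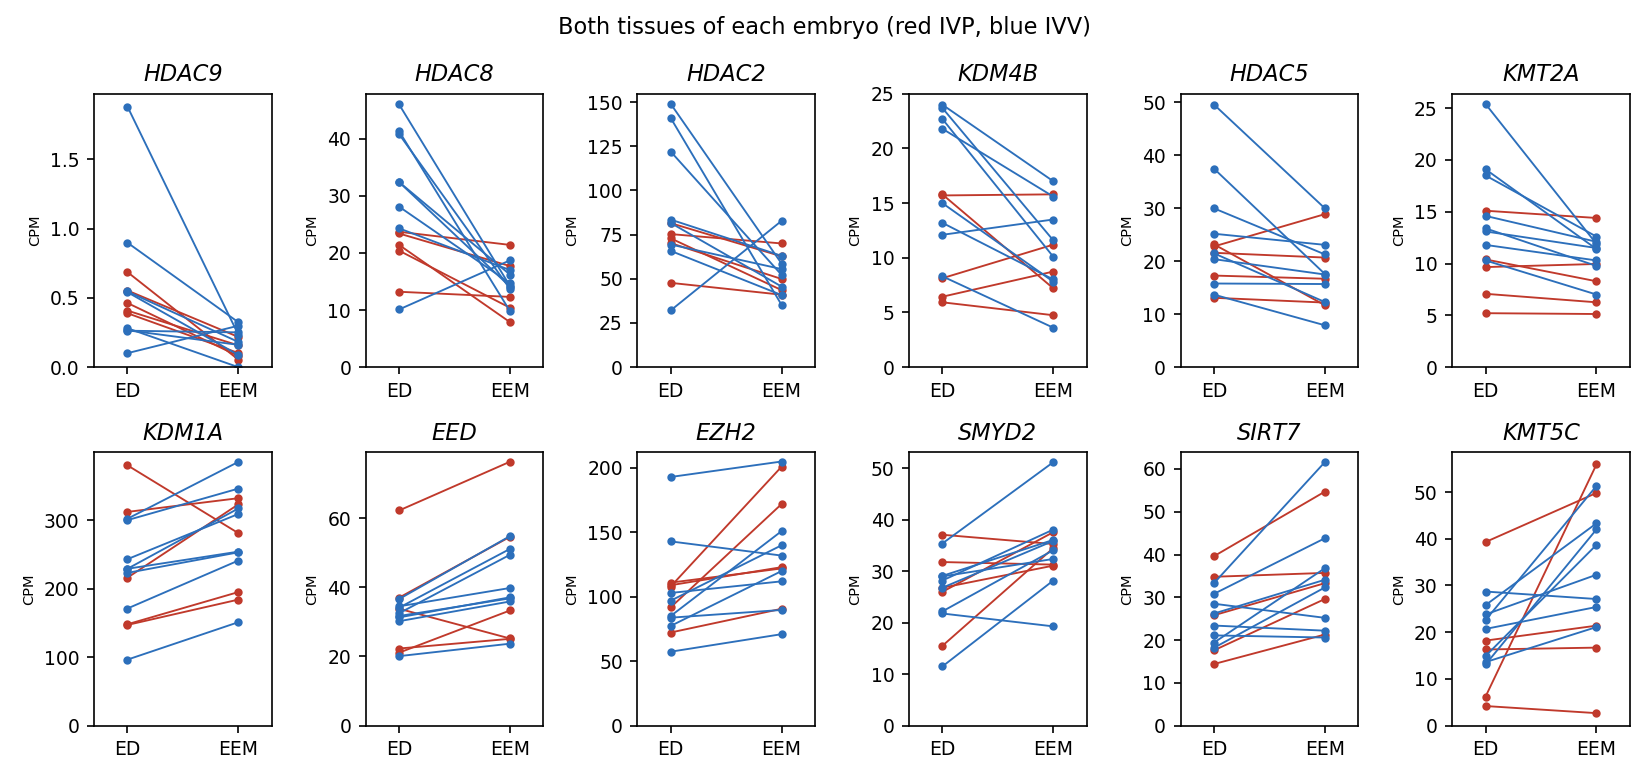
CPM (y axis) in the ED and the EEM of the 13 embryos with both tissues (lines join the tissues of 1 embryo, red for IVP and blue for IVV), for the 12 members other than JADE2 called between the tissues. Most lines fall from ED to EEM for the genes called higher in the ED, in 12 of 13 embryos for HDAC8, and rise for EZH2 and EED, where the ED was higher in 1 of 13 embryos.

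EZH2 and EED were called lower in the ED and 0 of the 4 PRC2 core genes higher, beside 8.16% of all genes lower and 12.8% higher, and the count over 4 genes was not tested against these shares. EZH2 averaged 102 CPM in the ED and 133 CPM in the EEM (log2 difference -0.36, SE 0.10, adjusted p = 0.0162, edgeR), and EED 32.9 and 41.8 CPM (log2 difference -0.31, SE 0.09, adjusted p = 0.0252, edgeR), each higher in the ED in 1 of 13 embryos. Without VE26 the EED call was lost (-0.28, adjusted p = 0.0552). SUZ12 had a difference of -0.21 (SE 0.09, adjusted p = 0.116) that did not pass, and EZH1 one of 0.23 (SE 0.16, adjusted p = 0.327). Of the sirtuins, SIRT7 was lower in the ED (25.6 against 34.7 CPM, log2 difference -0.40, SE 0.11, adjusted p = 0.0122, edgeR), and SIRT1 differed by -0.29 (SE 0.11, adjusted p = 0.0649). None of the 11 SETD, 2 EHMT, 7 PRMT or 8 KAT genes tested was called between the tissues by edgeR, where by unadjusted p 1, 0, 1 and 2 of them were under 0.05, beside 34.2% of all genes. Of 14 proliferation genes, 1 (TOP2A) was called, higher in the ED, and the median of that list was -0.065.

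Whether the tissue difference depended on the procedure was tested as an interaction in the same 26 libraries. None of 80 members was called by edgeR, DESeq2 or limma voom, beside 1.02% of all 16784 genes tested, and 2 had an unadjusted p under 0.05, beside 10.3% of all genes, KDM4B (interaction -0.67, SE 0.30, adjusted p = 0.411) and SETD4 (0.68, SE 0.31, adjusted p = 0.455). For JADE2 the interaction was -1.01 with an SE of 1.07 (adjusted p = 0.877, edgeR). JADE2 was too low in the EEM to be tested there, so this fit cannot decide whether its change was confined to the ED. HDAC8 and KDM6A had interactions of -0.47 (SE 0.40) and -0.22 (SE 0.25). Within the 8 IVV embryos 6 members were higher and 2 lower in the ED, beside 15.6% and 6.55% of all genes tested. Within the 5 IVP embryos 1 was higher, JADE2, and 0 lower, beside 4.18% and 0.649% of all genes, so the count fell for the whole transcriptome as well and the lower count in IVP embryos is not a tested difference of the members.

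The partners of these enzymes were counted by complex, in lists that hold no member. Of 13 subunits that work with JADE or MYST acetyltransferases, 2 were lower in IVP discs, ING3 and EPC2, and 0 higher, and both are subunits of the KAT5 (TIP60) complex. The share of all genes called lower in the ED was 4.95%, and the counts of lists this short were not tested against it. ING3 ran from 3.92 to 15.5 CPM in IVP and from 9.46 to 19 CPM in IVV discs (log2 fold change -0.85, SE 0.24, adjusted p = 0.0347, edgeR). In the EEM ING3 was also called, with means of 9.66 and 18.7 CPM (log2 fold change -0.97, SE 0.23, adjusted p = 0.0149, edgeR). EPC2 averaged 12.9 CPM in IVP and 19.5 CPM in IVV discs (log2 fold change -0.77, SE 0.23, adjusted p = 0.0426, edgeR). The other 11 subunits, ING4, ING5 and MEAF6 of the KAT7 complexes among them, were not called in the ED.

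Of 8 PRC2 accessory genes, JARID2, which recruits PRC2 to its targets, was lower in IVP discs (16.3 to 47.8 CPM against 25.7 to 120 CPM, log2 fold change -0.93, SE 0.27, adjusted p = 0.0377, edgeR). Of 24 HDAC corepressor partners, RCOR2, a CoREST subunit that joins HDAC1 or HDAC2 to KDM1A, was lower in IVP discs (2.11 to 8.86 CPM against 4.78 to 23.7 CPM, log2 fold change -1.33, SE 0.36, adjusted p = 0.0261, edgeR). Both groups of libraries overlapped for each gene. HR, a demethylase of lysine 9 of histone H3 and 1 of 6 other demethylases tested, was called lower at means of 0.164 and 0.853 CPM (adjusted p = 0.00527, edgeR), but it held only 0 to 22 counts in IVP and 5 to 137 counts in IVV discs, so the size of its difference was not read. None of 23 PRC1 genes, 12 COMPASS partners, 10 other methyltransferases or 12 other acetyltransferases was called in the ED by edgeR, where 2, 1, 0 and 1 had an unadjusted p under 0.05, beside 18.4% of all genes.

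JARID2 and RCOR2 separated the tissues fully, in a comparison where 12.8% of all genes were higher and 8.16% lower in the ED. JARID2 averaged 42.3 CPM in the ED and 8.84 CPM in the EEM (log2 difference 2.12, SE 0.21, adjusted p = 4.01e-07, edgeR), and RCOR2 8.16 and 1.08 CPM (log2 difference 2.67, SE 0.30, adjusted p = 1.76e-06, edgeR), each higher in the ED in 13 of 13 embryos. Of the PRC1 genes, CBX2 (1.01), CBX6 (1.57) and PHC1 (1.08) were higher in the ED and CBX8 (-0.49) was lower, as log2 differences. RBBP7, a histone binding subunit of PRC2 and of HDAC complexes, was lower in the ED (log2 difference -0.29, adjusted p = 0.0464, edgeR). Among the other HDAC partners called were MTA3 (0.50) and ZMYM3 (0.36), higher in the ED, and MBD3 (-0.29), lower.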

How the data were processed

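RNA of both tissues was sequenced without strand information (poly(A), paired reads). The authors filtered reads with SOAPnuke, mapped them with STAR 2.7.0b (genome ARS-UCD1.3) and summarised them by gene in featureCounts (Subread 2.0.3), and the deposited values are raw counts for 35092 Entrez gene IDs. Symbols for 31630 IDs came from RefSeq annotation of ARS-UCD2.0, whose positions were not printed because the assembly differs. All genes were fitted with edgeR 4.0.16 in R 4.3.3 (TMM, filterByExpr with a minimum count of 10, quasi-likelihood test, Benjamini-Hochberg adjustment over all genes tested, threshold 0.05). Each comparison of procedures, on every library of a tissue, had 1 surrogate variable from sva 3.50.0, after the study's use of sva, and tissues were compared with embryo as replicate block. Same-embryo deviations correlated between -0.187 and 0.636, and 12 of 13 embryos were above 0. The steps were tested on simulated data. Alternatives are given in the closing section. Members and gene lists were chosen with earlier results of these data known. Named members are the JADE genes, the PRC2 core, X-linked members, called members and those of highest and lowest mean CPM in a class (a rule for choosing names, not an order of transcript levels), besides a few chosen after their values were seen (KDM7A was an extreme; KAT7, SETD4). P-values measure the spread between these embryos, which shared few cows. The values of 1 listed gene are not reported here.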

Additional observations from a re-analysis of the deposited data

Results flagged for a closer look

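In 132 sets of libraries, 1 for each named member in each group where its level varied, 8 held a library whose gap to its nearest neighbour was large for the group's range, and chance flags about 1 in 20 groups. VE5 was highest among IVV discs for EZH1 (9.13 CPM, next 5.6), HDAC9 (1.88 CPM, next 0.898) and KDM7A (1.75 CPM, next 1.05), and it was also the disc with the most POU5F1 (228 CPM) and JADE2 (17.9 CPM). Without VE5 the JADE2 estimate was -1.69. VE29 was highest among IVV membranes for KAT5 (102 CPM, next 64.2) and KDM5C (287 CPM, next 169), and without it the KDM5C estimate in the EEM was -0.35. SMYD1 was detected in few libraries, with its highest values at 0.153 CPM in the IVPF13 disc, 0.0436 CPM in the IVPF13 membranes and 0.0855 CPM in the VE19 membranes, beside a limit of 0.0476 to 0.0616 CPM that a count of 0 allows.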

How the results depend on the processing

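No called member changed direction in the alternatives run, in which the partner genes and POU5F1 were not followed. The counts of called members below stand without the share of all genes called in the same setting. A count that rose or fell was therefore not read as a change of the members. In the ED the 3 members called became 6 with DESeq2 (KDM7A, KMT2A and HDAC8 in addition), 5 with no filter on low counts (PRMT8 and HDAC8 in addition), 0 without embryos titled IVPF, which left 3 IVP discs, and 1 (KDM6A) with the epiblast list or POU5F1 as covariate. They were 2 with no surrogate variable, 2 surrogate variables or the title letter (JADE2 and KDM6A) and with XIST (JADE2 and HDAC8), and ranged from 2 to 4 with each embryo left out. In the EEM the 1 member called became 0 with no surrogate variable, 2 surrogate variables, XIST, the title letter or POU5F1 as terms, the 13 embryos with both tissues alone or without IVPF embryos, became 2 with the epiblast list, and ranged from 0 to 1 with each embryo left out. Between the tissues the 13 calls became 4 with no replicate block (JADE2, HDAC9, HDAC2 and HDAC8), 8 within IVV and 1 within IVP embryos, and ranged from 8 (without VE5) to 17 (without IVP10). No paired analysis was possible between IVP and IVV because they are different embryos. The interaction had 0 calls throughout. HDAC8, EZH2, SMYD2 and SIRT7 kept their tissue call without each embryo, and nothing is read from this for JADE2 and HDAC9, which passed the filter through the ED. HDAC2, KDM1A, KDM4B, KMT5C, HDAC5, KMT2A and EED lost it without 6, 7, 4, 4, 3, 1 and 1 of the 13 embryos, with adjusted p up to 0.0823. For the called, JADE, PRC2 and X-linked members, 1200 alternative values stayed on their side of the threshold, 91 lost and 7 gained a call, all 7 for HDAC8 in the ED. Other members gained a call in single settings: SETD7 (ED, without IVP11), KDM7A (ED, 13 embryos with both tissues), SIRT1 (EEM, epiblast list), and between the tissues KMT2E, PRMT9 and KMT5A (without IVP10), SIRT1 (without IVP10 or VE28), KAT7 (without IVP11) and KDM1B (without IVPF13). The causes were not tested. HDAC9, KDM7A, SMYD1, PRMT8 and HR, and JADE2 in the EEM, held low counts in some or all libraries.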
